A study of Mus musculus with 2 samples.

Results

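The nuclear genes of respiratory complexes II to V, with cytochrome c and dedicated assembly factors, were compared between hepatocytes sorted as positive and as negative for EzrinT567D. Members were chosen by symbol: probe sets of a single gene named Sdha to Sdhd, Sdhaf, Uqcr, Uqcc, Cyc1, Cycs, Cox4 to Cox8, Cox10 to Cox19, Atp5 or Atpaf, without symbols that start with mt-. This gave 64 of 18193 genes and 127 of 34945 probe sets. They divided into 8 genes for complex II, 12 for complex III, 1 for cytochrome c, 24 for complex IV and 19 for complex V.

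Each group held 1 array of hepatocytes from male wild-type FVB mice. The mice were 6 to 8 weeks old, and all had been injected hydrodynamically through the tail vein, which forces plasmid into hepatocytes by volume. It carried 10 µg of an EzrinT567D plasmid and 0.8 µg of pCMV/SB in 2 ml of saline, and cells were isolated 1 week later. EzrinT567D is an ezrin, a linker of membrane and actin, with an acidic residue in place of a phosphorylated threonine. GFP- cells formed the negative group and GFP+ cells the positive group, so the negative cells also came from injected livers, and no uninjected group was analysed here. The description fields disagree with this: they put both samples at 2 months and assign a fast food diet to the positive sample alone, whereas the growth protocol names chow. By those fields, diet and EzrinT567D cannot be told apart. The sources used here do not give the number of mice, any pooling, or whether both fractions shared livers.

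With 1 array a group there is no replicate error and no test, and every difference below compares those 2 arrays. Values are MAS5 signals, a linear probe set intensity, and ratios are of the positive over the negative array on the log2 scale unless a fold is named. A gene takes the value of its brightest probe set. A background floor was set per array from receptor genes of smell and taste, at 253 for the negative and 334 for the positive array. Of the members, 60 exceeded it on the negative and 61 on the positive array. In bulk RNA, fewer cells of a type and less RNA per cell cannot be told apart.

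The respiratory chain passes electrons through complexes of the inner mitochondrial membrane. Complex II, succinate dehydrogenase, is also an enzyme of the citric acid cycle and hands electrons to ubiquinone, complex III moves them on to cytochrome c, and complex IV gives them to oxygen. Complex V, the ATP synthase, uses the proton gradient built by the chain to make ATP. Some core subunits of complexes III, IV and V are encoded by mitochondrial DNA and are not analysed here. Hepatocytes are rich in mitochondria, and those around the portal vein, which see the most oxygen, are known as the more oxidative.

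Promoters of 5 members are shown, those of subunits that the results below single out: the 3 genes for the c ring of complex V (Atp5g1, Atp5g2 and Atp5g3), whose ratios differed in sign, and the lowest subunits of complex III (Uqcrfs1) and of complex II (Sdhb). Each runs 5′ to 3′ from 250 bases before to 50 after the gene's start, from RefSeq, GRCm38.p6. Capitals mark matches, on either strand, to 6 motifs: GGGCGG (SP1), CCGGAAG (ETS family, as bound by GABPA), GCGCA and GCGC with any 1 base between (NRF1), AANATGGCG (YY1), TCAAGGTCA (ERR) and TGACGTCA (CREB).
Atp5g1 (chr11:96075582-96075881, minus strand): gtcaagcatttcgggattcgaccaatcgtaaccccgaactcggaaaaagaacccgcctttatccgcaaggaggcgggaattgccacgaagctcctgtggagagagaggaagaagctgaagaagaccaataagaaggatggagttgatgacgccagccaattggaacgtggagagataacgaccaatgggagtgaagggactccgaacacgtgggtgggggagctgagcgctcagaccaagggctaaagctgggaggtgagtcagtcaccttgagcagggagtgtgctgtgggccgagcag
Atp5g2 (chr15:102670998-102671297, minus strand): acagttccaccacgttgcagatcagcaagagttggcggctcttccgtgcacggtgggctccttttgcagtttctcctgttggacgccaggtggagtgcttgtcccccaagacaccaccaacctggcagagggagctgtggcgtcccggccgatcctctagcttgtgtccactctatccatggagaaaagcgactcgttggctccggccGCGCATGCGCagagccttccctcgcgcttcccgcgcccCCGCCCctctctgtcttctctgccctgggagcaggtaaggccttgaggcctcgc
Atp5g3 (chr2:73911277-73911576, minus strand): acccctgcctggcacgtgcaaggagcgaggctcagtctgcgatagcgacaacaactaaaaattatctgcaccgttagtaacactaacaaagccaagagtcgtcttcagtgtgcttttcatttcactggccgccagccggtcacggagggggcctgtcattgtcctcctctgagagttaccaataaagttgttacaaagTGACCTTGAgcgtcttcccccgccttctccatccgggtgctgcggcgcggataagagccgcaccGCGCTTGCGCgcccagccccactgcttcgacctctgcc
Uqcrfs1 (chr13:30545267-30545566, minus strand): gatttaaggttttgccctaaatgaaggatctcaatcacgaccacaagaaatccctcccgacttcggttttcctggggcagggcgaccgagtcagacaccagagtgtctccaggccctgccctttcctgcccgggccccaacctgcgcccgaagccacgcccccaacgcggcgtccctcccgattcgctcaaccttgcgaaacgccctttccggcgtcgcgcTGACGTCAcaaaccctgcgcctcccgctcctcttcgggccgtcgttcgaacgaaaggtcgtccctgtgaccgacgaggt
Sdhb (chr4:140961021-140961320, plus strand): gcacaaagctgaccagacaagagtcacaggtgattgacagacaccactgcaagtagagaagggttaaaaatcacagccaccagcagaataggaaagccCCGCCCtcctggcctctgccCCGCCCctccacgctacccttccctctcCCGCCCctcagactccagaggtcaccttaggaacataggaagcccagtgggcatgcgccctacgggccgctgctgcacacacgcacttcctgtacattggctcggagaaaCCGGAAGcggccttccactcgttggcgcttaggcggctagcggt
The Atp5g1 window held no match. That of Atp5g2 held 1 NRF1 and 1 SP1 match, that of Atp5g3 1 NRF1 and 1 ERR match, that of Uqcrfs1 1 CREB match, and that of Sdhb 1 ETS and 3 SP1 matches, with 0 overlaps between motifs. Windows were present for 50 of the 64 members, 55 windows in all. ETS letters occurred in 36.4% of them, against 16.9% of 10567 windows of genes above the floor and 8.86% of all 32851. NRF1 letters occurred in 23.6%, against 9.79% and 4.60%, and YY1 letters in 10.9%, against 4.95% and 2.38%. SP1 letters occurred in 50.9%, below the 60.2% of windows of genes above the floor and above the 35.7% of all windows. ERR letters were in only 2 member windows (3.64%, against 0.35% and 0.42%), and CREB letters also in 2 (3.64%, against 2.91% and 1.79%). For the ratios, the median was -0.19 over 19 members with ETS letters and -0.28 over 28 without, and -0.28 over 13 with NRF1 letters and -0.25 over 34 without. SP1 letters gave the same medians as ETS, -0.19 over 26 with and -0.28 over 21 without. For YY1 the medians were -0.23 over 6 with and -0.26 over 41 without. With only 2 members each, ERR gave -0.31, against -0.26 over 45 without, and CREB -0.51, against -0.24 over 45.

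Most members read slightly lower in EzrinT567D-positive hepatocytes. Of the 61 above the floor in at least 1 array, 45 were lower and 16 higher, where 46.5% of 10178 genes were lower and 44.9% higher. The median log2 ratio was -0.18 (1.13-fold lower), against 0.00 over all genes. At least 1.2-fold lower were 25 members and at least 1.2-fold higher 5, beside 18.2% and 21.9% of all genes. Both counts of higher members include Cox6b2, which passed the floor only in the positive array, where it was high. Of the 60 members above both floors 45 were lower and 15 higher, beside 49.4% and 50.6% of 8362 genes. At least 1.2-fold lower were 25 of these and at least 1.2-fold higher 4, beside 19.0% and 22.7%. No member reached 2-fold in either direction, which 0.58% of all genes did on the lower and 1.34% on the higher side. The members ran from -0.73 for Uqcrfs1 to 0.65 for Cox8c.

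**Figure D1:**
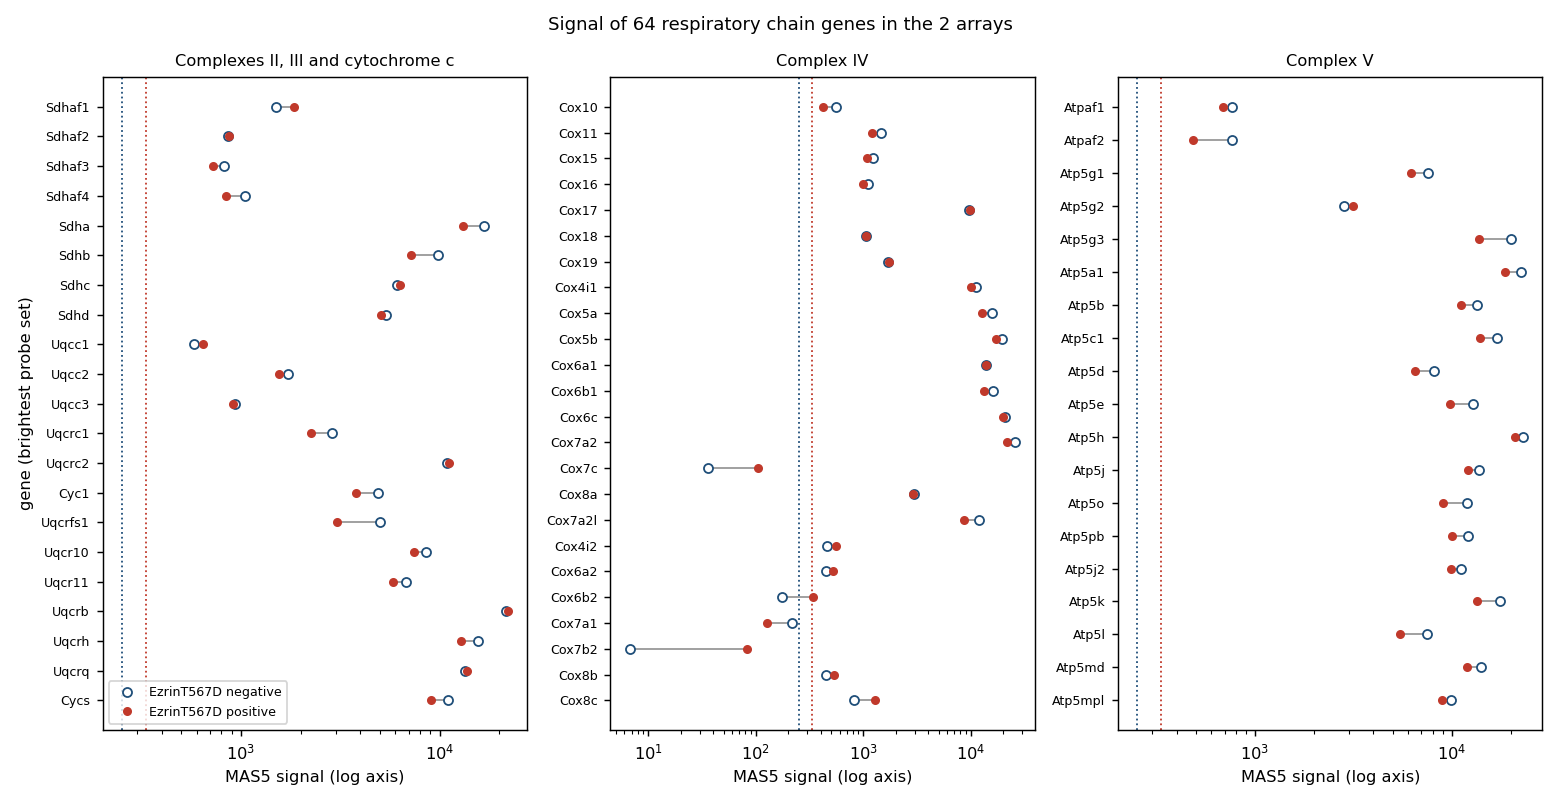
MAS5 signal (log axis) of the brightest probe set of each of the 64 genes in the negative (open circles) and positive (filled circles) array, with dotted lines at each array's floor. Nearly all complex V genes lie lower in the positive array, while Cox7c, Cox7a1 and Cox7b2 lie left of both floors.

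A shift of 1.2-fold is 0.26 on the log2 scale, close to the technical spread between probe sets of a gene. Where a gene had a pair or more of probe sets that passed both floors, as 3182 genes did, the ratios of its 2 brightest differed with an SD of 0.42. For the 29 members with such a pair the SD was 0.27, and 0.19 for the 22 whose dimmer probe set read 1000 or more. Scaled from a difference to a single probe set, these SDs were 0.30, 0.19 and 0.13 in the same order. The spread between mice was not measured. No single member is therefore called changed, and what follows describes how groups of members lay.

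Brighter genes read lower in general, and the members are bright. Over all genes, the median ratio went from 0.00 for mean signals up to 1000, through -0.04 (1000 to 5000) and -0.11 (5000 to 10000), to -0.13 over 10000. The first of these includes 876 genes set to 0 because 1 signal was below the floor. The members lay at -0.01 (12 genes), -0.14 (13), -0.21 (10) and -0.26 (26) in the same classes. In the brightest class 23 of 26 members (88.5%) were lower, against 78.5% of 349 genes, and 14 (53.8%) were at least 1.2-fold lower, against 21.8%. When the trend with signal was removed by loess, 42 of 60 members were still lower (70.0%, against 55.5% of all genes), with a median of -0.14 against -0.04. After loess 13 members (21.7%) were at least 1.2-fold lower, against 23.8% of all genes, and after quantile normalization 14 (23.0%), against 19.9%. After these normalizations the share past 1.2-fold thus lay near that of all genes, and the share merely lower did not. Those all-gene shares cover every class of signal. Within the brightest class, as deposited, the share of members past 1.2-fold was above that of all genes.

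**Figure D2:**
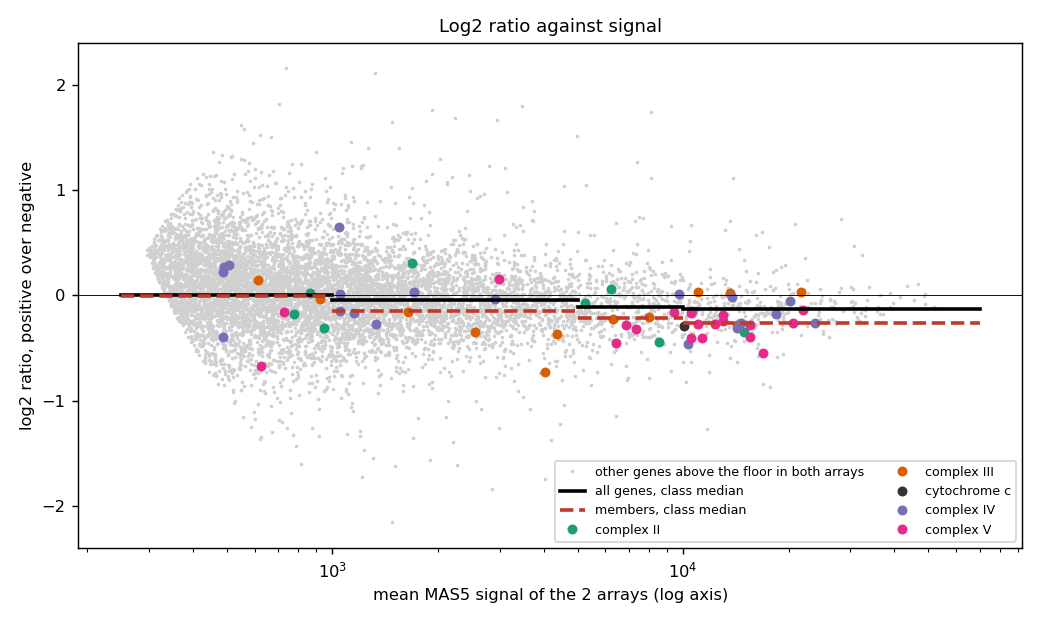
Log2 ratio against the mean MAS5 signal (log axis) of genes above the floor in both arrays, with members coloured by complex and lines at the class medians of all genes (solid) and members (dashed) above the floor in at least 1 array. The solid line falls from 0.00 to -0.13 and the dashed line lies below it in the 3 brighter classes, at -0.14, -0.21 and -0.26.

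Complex V was the most uniform. Of its 19 genes, all above the floor, 18 read lower and 1 higher. Their median was -0.28 (1.21-fold lower), and 12 were at least 1.2-fold lower. Over all genes 46.5% were lower and 18.2% at least 1.2-fold lower, shares that also stand beside the other complexes below. In the classes of signal above 5000, which hold most complex V genes, 68.0% to 78.5% of all genes were lower. At least 1.2-fold lower there were 21.7% to 21.8%. The median of complex V was -0.17 both after loess and after quantile normalization, where 18 were still lower and 6 were past 1.2-fold. For all genes, loess left 55.5% lower and 23.8% at least 1.2-fold lower, and quantile normalization 49.2% and 19.9%. All 5 genes of the catalytic head and central stalk were lower, in the narrow range from -0.40 to -0.27. The catalytic subunits are alpha (Atp5a1) and beta (Atp5b). Atp5a1 read 22406.7 on the negative and 18631.0 on the positive array (-0.27), and its other probe sets gave -0.22 and -0.30. Atp5b read 13501.6 and 11150.1 (-0.28). The gamma subunit gene of the rotating stalk, Atp5c1, read 16969.2 and 13970.9 (-0.28), but its other probe set, at 339.3 and 483.5 near the floor, gave 0.51. Averaged over both probe sets the ratio of Atp5c1 was 0.12, so its direction rests on the probe set used. Atp5d (delta) and Atp5e (epsilon) had ratios of -0.31 and -0.40.

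The peripheral stalk, which keeps the head from turning, was lower in all 4 genes. Atp5o, the subunit that confers oligomycin sensitivity, read 11966.1 and 9066.5 (-0.40), and its other probe set also gave -0.40. Atp5pb (subunit b) had -0.27 and -0.37 in its 2 probe sets, Atp5h (subunit d) -0.14 and -0.39, and Atp5j (factor 6) -0.19. The 5 small membrane subunits were lower as well, from -0.45 to -0.16. Subunit g, Atp5l, was the lowest of them, at 7439.3 and 5449.2 (1.37-fold lower). Subunit e, Atp5k, which helps ATP synthases pair into rows along the cristae, was lower in 3 of 3 probe sets (-0.39, -0.32 and -0.65). Atp5j2, Atp5md and Atp5mpl lay between -0.24 and -0.16.

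The genes of the c ring, the rotor through which protons pass, did not move together. Atp5g1, Atp5g2 and Atp5g3 encode one and the same mature subunit behind different import signals. Atp5g3 read 20009.9 on the negative and 13669.1 on the positive array (1.46-fold lower, -0.55), the lowest subunit gene of complex V. Atp5g1 read 7534.1 and 6197.8 (-0.28). Atp5g2 read 2833.7 and 3147.4, the single complex V gene that was higher (0.15). Each gene has 1 probe set above the floor, so no second probe set bears on this order. After loess the ratios were -0.43, -0.18 and 0.22 in the same order. The assembly factor Atpaf2, which binds the alpha subunit before the head is built, was the lowest of all 19 (766.5 and 481.6, 1.59-fold lower). Its partner for the beta subunit, Atpaf1, read 765.0 and 686.3 (-0.16).

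**Figure D3:**
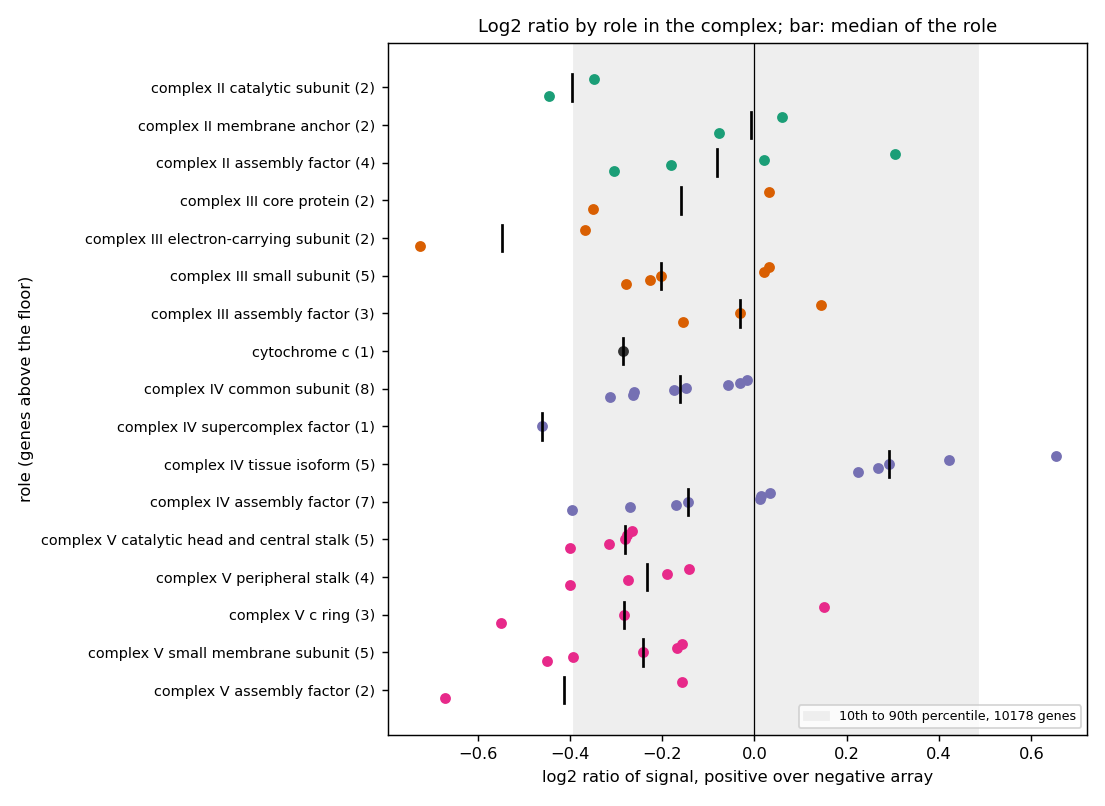
Log2 ratio of the 61 genes above the floor, each a point, by role in its complex, with a black bar at the median of the role and a grey band from the 10th (-0.39) to the 90th percentile (0.48) of all 10178 genes. The roles within complex V lie left of 0 except for Atp5g2 in the c ring, and the 5 tissue isoforms of complex IV, Cox6b2 as a bound, lie right of it.

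In complex III, 8 of 12 genes read lower and 4 higher. Their median was -0.18, and 4 were at least 1.2-fold lower. The electron-carrying subunits were the lowest. Uqcrfs1, the Rieske iron-sulfur protein that accepts electrons from ubiquinol, read 5040.6 on the negative and 3048.3 on the positive array. This was 1.65-fold lower, the lowest ratio among the members as deposited, from the gene's only probe set. After loess Uqcrfs1 was at -0.65 and Atpaf2 of complex V, at -0.74, was lower, as it was after quantile normalization. Cyc1, cytochrome c1, which passes them to cytochrome c, read 4923.5 and 3816.2 (1.29-fold lower).

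The core proteins Uqcrc1 and Uqcrc2, which carry no redox group, gave a mixed picture. Uqcrc1 read 2865.9 and 2250.0 (-0.35). Uqcrc2 gave 0.03 from its brightest probe set (10915.9 and 11161.4) and -0.45 from the other (6020.8 and 4394.7). Among the small subunits Uqcrh, the hinge protein beside cytochrome c1, was lower in both probe sets (-0.28 and -0.33), and Uqcr11 (-0.23) and Uqcr10 (-0.20) were lower too. Uqcrq read 13486.1 and 13673.3 (0.02). Uqcrb gave 0.03 (21488.2 and 21970.1) and -0.32 (5218.1 and 4187.8). The assembly factors of cytochrome b, Uqcc1, Uqcc2 and Uqcc3, lay at 0.14, -0.15 and -0.03, and the second probe set of Uqcc1 gave -0.14. Cytochrome c itself, Cycs, was lower in 3 of 3 probe sets above the floor, at -0.29 (11019.4 and 9038.4), -0.06 and -0.62.

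In complex II both catalytic subunits were lower: the flavoprotein Sdha read 16697.0 and 13126.7 (1.27-fold lower), with -0.32 from its next probe set, and the iron-sulfur subunit Sdhb 9830.7 and 7222.7 (1.36-fold lower). The membrane anchors lay near 0 by their brightest probe sets, at 0.06 for Sdhc (6084.0 and 6345.0) and -0.08 for Sdhd (5377.5 and 5101.6). The second probe sets gave -0.30 for Sdhc and -0.36 for Sdhd. Over the 8 genes of complex II, 5 were lower and 3 higher. Their median was -0.13, and the mean over probe sets moved it to -0.26 with 7 lower. Of the assembly factors, Sdhaf1, which helps to mature the iron-sulfur subunit, was the highest (1504.9 and 1859.0, 0.30). Sdhaf4, a chaperone of the flavoprotein, was the lowest (1045.2 and 845.9, -0.31). Sdhaf3 gave -0.18, and Sdhaf2, which promotes attachment of the flavin, gave 0.02 and -0.64 from 2 probe sets of similar signal.

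With its tissue isoforms counted, complex IV had the median nearest 0 and the widest full range, from -0.46 to 0.65. Of 21 genes above the floor in at least 1 array 13 were lower and 8 higher. Their median was -0.06, and with loess the split was 10 and 10. Of the 20 above both floors, which leaves out Cox6b2, 13 were lower and 7 higher (median -0.10). Without the tissue isoforms 13 of 16 genes were lower and 3 higher, from -0.46 to 0.03. The median was then -0.16, further from 0 than that of complex II (-0.13). The subunits common to all tissues and the tissue isoforms are given in turn. All 8 common subunits above the floor were lower by their brightest probe sets, from -0.31 to -0.02. All but Cox8a had mean signals over 10000, a class in which 78.5% of all genes were lower. Cox6a1 and Cox8a were positive after loess (0.10 and 0.03) and after quantile normalization (0.10 and 0.02). Cox5a read 15812.8 and 12728.1 (-0.31, with -0.30 and -0.21 from its other probe sets), Cox7a2 25916.5 and 21595.3 (-0.26), and Cox6b1 15987.3 and 13340.4 (-0.26). Cox5b gave -0.17 from its brightest probe set and from -0.39 to -0.27 from 3 others, Cox6c -0.06 and -0.22, and Cox4i1 -0.15. Cox8a (2943.8 and 2881.5, -0.03) and Cox6a1 (13856.4 and 13700.2, -0.02) lay at 0, and the other probe set of Cox6a1 gave 0.06. Cox7c, also a common subunit, was below the floor in both arrays in each of its 2 probe sets, so no ratio is given.

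Cox7a2l, a relative of Cox7a2 that joins complexes III and IV into supercomplexes, had the lowest ratio of the complex IV genes as deposited, whereas Cox10 was lower after loess (-0.51, against -0.35) and after quantile normalization (-0.49, against -0.37). Cox7a2l read 11944.4 and 8681.5 (1.38-fold lower), and its 3 probe sets gave -0.46, -0.45 and -0.36. The 7 assembly factors had a median of -0.14, with 4 lower and 3 higher. The heme-modifying enzymes Cox10 (553.5 and 420.9, -0.40) and Cox15 (1215.7 and 1081.1, -0.17) were lower in 3 and 4 of their probe sets above the floor, which were all of them. Of the copper-handling factors, Cox11 was lower (-0.27), while Cox17 (9678.8 and 9754.0, 0.01) and Cox19 (0.03) lay at 0. Cox16 and Cox18, which act on the core subunit that receives electrons from cytochrome c, gave -0.14 and 0.01.

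Isoforms known from other tissues read low in both arrays and somewhat higher in the positive one. Cox8c, a testis isoform, read 810.7 on the negative and 1274.3 on the positive array (0.65). Cox4i2, the lung isoform, read 456.3 and 558.7 (0.29), and the heart and muscle isoforms Cox8b (445.9 and 536.8, 0.27) and Cox6a2 (450.3 and 526.0, 0.22) were close to it. Cox6b2, a testis isoform, read 174.5, below the floor, and 338.2, just above it, at least 1.34-fold higher. The bound of Cox6b2 was 0.02 with 1 floor for both arrays. Cox7a1 (214.9 and 126.0) and Cox7b2 (6.7 and 83.5) were below both floors. Since Cox6b2 passed the floor only where it was high, its direction was set by the filter. The 4 isoforms above both floors were higher, 3 of them at least 1.2-fold, and after loess 1 was. Of 6249 genes with mean signals up to 1000, the class of these isoforms except Cox8c, 48.5% were higher and 28.0% at least 1.2-fold higher. Of 6 striated muscle markers, 4 (Acta1, Actn2, Myh7 and Tnnt3) passed neither floor. Myoglobin, Mb, was the only one above both (419.5 and 591.6, 0.50), and the summed signal of the 6 was 1182 and 1215. Of 3 brown adipocyte markers 1 passed a floor, Ucp1 (228.1 and 374.3, at least 1.48-fold higher). The part of low-signal behaviour or of other cells in these isoform ratios was not tested.

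Probe sets of one gene mostly pointed the same way. Of the 127 probe sets 99 exceeded the floor in both arrays, and of these 82 were lower and 17 higher (median -0.24). Among the 29 genes with at least 2 such probe sets, all probe sets were lower in 22, all higher in 0, and the signs differed in 7 (Atp5c1, Cox6a1, Sdhaf2, Sdhc, Uqcc1, Uqcrb and Uqcrc2). For the 2 brightest probe sets, 75.9% of these members had both lower, against 29.4% of 3182 genes. Where the dimmer probe set read 1000 or more, the shares were 81.8% of 22 members and 43.1% of 1252 genes. In Sdhc, Uqcrb and Uqcrc2 the brighter probe set lay near 0 and the dimmer one at -0.30 or below. Probe sets with names in _s_at, _x_at or _a_at can detect several transcripts, and respiratory subunits have many processed pseudogenes. The median over probe sets was -0.24 for both those names (52 probe sets) and plain names (47). In the 19 members with both kinds, the median was -0.28 for plain and -0.17 for shared names.

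**Figure D4:**
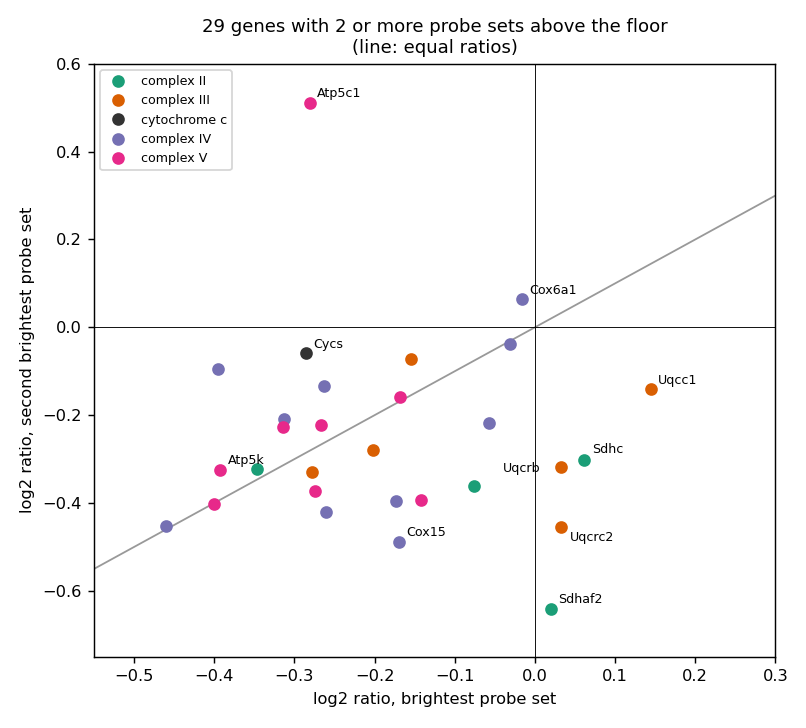
Log2 ratio of the second brightest against the brightest probe set of the 29 members with such pairs, by complex, with a line of equal ratios. Points gather at the lower left (22 genes), while Sdhc, Uqcrb, Uqcrc2, Uqcc1 and Sdhaf2 lie right of 0 on the brightest probe set only and Atp5c1 stands apart at 0.51.

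Other mitochondrial lists also held more genes that were lower than higher. All of these counts stand beside 46.5% lower over all genes and 57.9% to 78.5% in the classes above a signal of 1000, and no difference between lists was tested. Among the genes counted as lower, Ndufaf3, Bcs1l and Mrpl54 passed the floor in the negative array only, so their direction was set by the filter. Complex I, which feeds electrons from NADH into the chain, was taken as the genes with symbols starting Nduf. Of 41 such genes 36 were lower and 5 higher (median -0.23). Chosen by name, this list is not limited to subunits of complex I, as it holds Ndufaf assembly factors, Ndufa4 and Ndufa4l2. Ndufs7, an iron-sulfur subunit, read 8445.7 and 5318.8 (-0.67). In the citric acid cycle 11 of 12 were lower (median -0.21), led by fumarase, Fh1, which acts on the product of complex II (7021.3 and 3899.0, -0.85). The 6 carriers and pores that serve ATP export were all lower (median -0.36), with the ADP/ATP carrier Slc25a5 at 16003.9 and 11910.5 (-0.43). Of 17 further assembly factors 14 were lower (median -0.21), among them Ttc19 (648.9 and 397.5, -0.71), which clears fragments of the Rieske protein from complex III, and Coa7 was higher (311.3 and 571.0, 0.88). Mitochondrial ribosomal proteins were lower in 57 of 75 (median -0.14), and coenzyme Q synthesis genes in 5 of 8 (median -0.10).

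Of 13 nuclear regulators of respiratory genes above the floor in at least 1 array 9 were lower and 4 higher (median -0.18). Over all genes 46.5% were lower and 44.9% higher. The counts include Gabpb1 (418.8 and 227.7), Ppargc1a and Pprc1. Each of these passed the floor only in the array where it was high, so its direction was set by the filter. Tfam, which packages and transcribes mitochondrial DNA, read 1311.3 and 996.3 (-0.40), and Polrmt, the mitochondrial RNA polymerase, 867.4 and 617.0 (-0.49). The nuclear receptor Esrra, which binds the ERR motif, read 678.0 and 515.3 (-0.40). In contrast Nrf1 read 396.1 and 577.3 (0.54), Gabpa 1628.2 and 1651.8 (0.02), and the coactivator Pprc1 167.4, below the floor, and 402.4 (at least 1.59-fold higher). The coactivator Ppargc1a was above the floor in the negative array only (341.2 and 238.8).

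**Figure D5:**
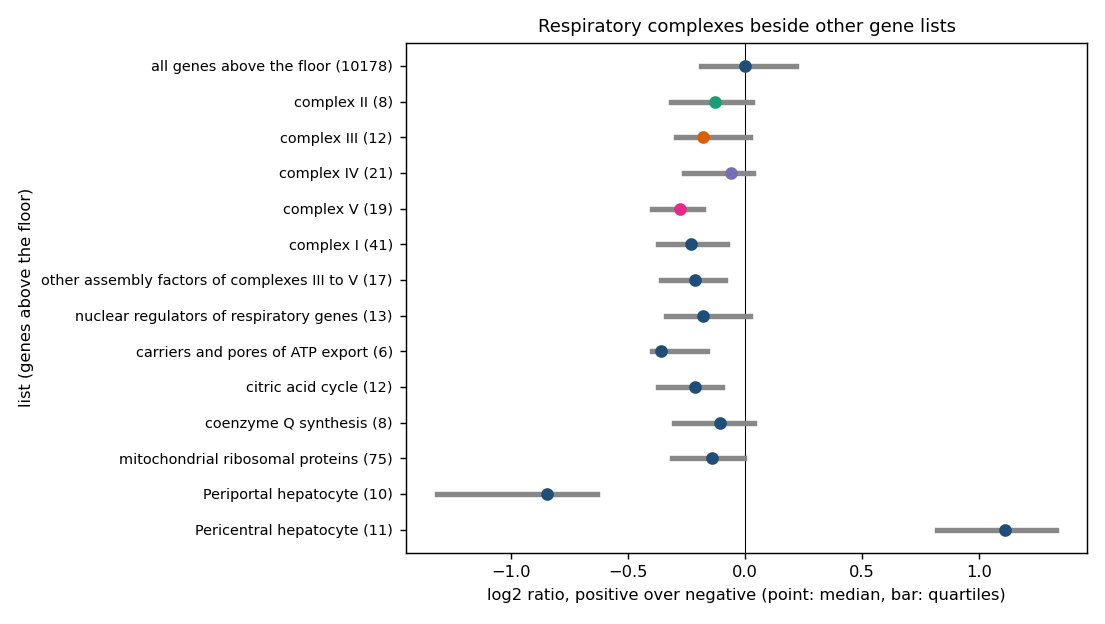
Median (point) and quartiles (bar) of the log2 ratio for the respiratory complexes, other mitochondrial lists, all genes above the floor and the markers of liver zones, with the number of genes in brackets. Complexes I (symbols starting Nduf) and V lie lowest among the complexes, at -0.23 and -0.28, and the zone markers lie far apart, at -0.84 and 1.11.

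Markers of the liver zones also differed between the arrays. All 11 pericentral markers were higher (median 1.11) and 9 of 10 periportal markers lower (median -0.84), with summed signals of 51077 (negative) and 93820 (positive) for the pericentral list, and 122554 and 72630 for the periportal list. Hepatocyte markers were above the floor in 7 of 7, with a median of -0.12. All 5 cholangiocyte markers were below the floor in both arrays, with sums of 499 and 693. For Kupffer cells and macrophages 4 of 8 markers exceeded it in at least 1 array (sums 2599 and 2118), for sinusoidal endothelium 5 of 7 (3628 and 4184), for stellate cells 5 of 7 (2618 and 2285), for erythroid cells 2 of 3 (1186 and 863) and for lymphocytes 1 of 4 (495 and 331). The erythroid marker Slc4a1 (273.9 and 66.5), the lymphocyte marker Cd79a (274.0 and 114.5) and the muscle marker Ckm (312.3 and 214.0) were set to 0. Each passed the floor in the negative array only. The part of zonal position or of other cells in the respiratory ratios was not tested.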

How the data were processed

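RNA of 1 EzrinT567D-negative and 1 EzrinT567D-positive hepatocyte sample was measured on Affymetrix Mouse Genome arrays. The deposited values are linear intensities, 1 for each probe set, and MAS5 is the method that the submitters' processing notes name. Each array had a 2% trimmed mean of 500.0 before any step here. Other measures of level differed: the median signal was 174.2 on the negative and 187.6 on the positive array. Of all probe sets, 40.1% and 35.0% exceeded the floor of their array. The sources used here do not give the software version or settings.

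From these values log2 ratios, positive over negative, were computed in Python 3.11.15 (numpy 2.4.6, pandas 2.3.3). Symbols came from the platform annotation, and all 64 member symbols matched RefSeq by Entrez ID with 0 changes. The floor was the 95th percentile of 84 olfactory, vomeronasal, bitter taste and trace amine receptor probe sets (252.7 and 334.0). The brightest probe set by mean signal stood for its gene. Below the floor, the dim signal was raised to it, and a bound that then pointed away from the measured side was set to 0. The calculation was tested on simulated data. Alternatives were other floors, handling of bounds, probe sets, quantile normalization, loess (statsmodels 0.14.6, span 0.4) and centring. Precision is limited by the number of arrays. Members, lists and settings were chosen with earlier results of these data known. Genes named were the 3 lowest and 2 highest ratios per complex, tissue isoforms, c ring genes, Cycs and genes whose probe sets differ in sign or that have a bound; others serve as examples of their role.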

Additional observations from a re-analysis of the deposited data

How the results depend on the processing

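No paired analysis was possible because each group held 1 array. Over 11 alternatives, 122 of 132 values for the complexes and counts kept their direction and moved little: counts by at most 1.5 times, and medians by less than a cutoff. That cutoff was 0.30, the technical spread of a single probe set, scaled down for the number of genes. The scaling takes genes as independent, though all come from the same 2 arrays. It holds no spread between arrays or mice, so the cutoff is a convention and no error of the medians. Quantile normalization and loess moved the complex V median to -0.17 with each. Over all members they moved the count at least 1.2-fold lower to 14 and 13, and the count at least 1.2-fold higher to 3 and 2. The mean over probe sets and the removal of _s_at, _x_at and _a_at probe sets moved the complex II median to -0.26 and -0.31, and the latter moved Cycs to -0.62. Without a floor 2 members were at least 2-fold higher, both from signals below the floor (Cox7b2 and Cox7c). The cause of these moves was not tested. Of 353 values for named genes 345 moved by less than 0.30 without reversing a ratio past 1.2-fold. Atp5c1 reversed from such a ratio, to 0.12 with probe sets averaged and 0.51 without shared names. A total of 8 genes, Atp5c1 included, changed sign under some alternative, the others (Cox6a1, Cox8a, Sdhaf2, Sdhc, Uqcc1, Uqcrb and Uqcrc2) from ratios under 1.2-fold. Cox6b2 moved, to 0.95 without a floor or with each array's median signal as floor, and to 0.02 with 1 floor. Sdhaf2 moved to -0.31 with the mean over probe sets, and Uqcrb to -0.32 without shared names. Signal near the floor limits the tissue isoforms, and 1 array a group limits every value.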

Other observations

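Some parts of these complexes carry names outside the rule. Atpif1, the inhibitor that stops the ATP synthase from running backwards, read 3053.9 on the negative and 3976.1 on the positive array (0.38), opposite in sign to 18 of the 19 complex V genes. Its other 2 probe sets were below the floor. Cox14, an assembly factor of complex IV, shares its probe set with Gm29733, and that probe set read 2559.0 and 3365.3 (0.40). Dmac2l, a complex V factor, and Cyct, the testis cytochrome c, were below the floor in both arrays.

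Some genes of mitochondrial structure and protein quality were also looked up. Immt, the scaffold of crista junctions, gave -0.68, -0.02 and -0.26 in 3 probe sets, whereas Opa1, which fuses inner membranes, gave -0.09, 0.17 and -0.04. The matrix protease Lonp1 read 1463.5 and 999.0 (-0.55). The protease subunit Clpp gave -0.28 from its brightest probe set (4555.5 and 3738.9) and 1.32 from a dim one (279.9 and 700.6). The prohibitin Phb2 gave -0.37, -0.19 and 0.00 in the probe sets above the floor, and the import receptor Tomm20 ranged from -0.47 to 0.17 in 6. The cochaperonin Hspe1 read 15451.9 and 11286.3 (-0.45), with -0.01 from its other probe set, and its partner Hspd1 had a ratio of -0.19. Sod2, the superoxide dismutase of the matrix, was lower in 4 of 4 probe sets, from -0.52 to -0.05. These genes were chosen for their roles, and no test between the groups exists for them.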
